A study of Rattus norvegicus with 6 samples.

Results

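The 10 genes described here encode chaperones of the lumen of the endoplasmic reticulum (ER) and the co-chaperones that work with them. They are Hspa5, Hsp90b1, Hyou1, Calr, Canx, Dnajb9, Dnajb11, Dnajc3, Sdf2l1 and Manf, and they were chosen by function, with the results of the comparison of TMAO with Control already known. Of the 10, 9 had a probe set that the platform annotation names, among 15037 measured genes in all. Manf, a secreted ER protein that binds BiP, matched no named probe set and was not analysed here. The rule takes the probe set of highest mean signal for each gene, and each of the 9 had only 1. Because the contrast was in view when the genes were proposed, their differences between TMAO and Control are given as a description, and the counts of genes past a threshold support nothing by themselves.

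The samples were primary hepatocytes, the parenchymal cells of the liver, isolated from eight-week-old male Sprague-Dawley rats and plated on collagen in serum-containing medium. Hepatocytes of the TMAO group (3 arrays) received 50 µM trimethylamine N-oxide for 30 h, and those of the Control group (3 arrays) were left untreated, with no vehicle named in the labels. TMAO is the oxidised form of trimethylamine, a product of gut bacteria that the liver takes up. The labels name biological repeats and do not say whether each came from a separate animal, so the errors and p-values measure the spread between these arrays only. In such bulk RNA, fewer cells of a type and less RNA per cell cannot be told apart.

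Secreted proteins enter the ER unfolded, and hepatocytes make most plasma proteins by this route. BiP, the product of Hspa5, binds exposed hydrophobic stretches in a cycle of ATP binding and hydrolysis. J-domain proteins bring it clients and start hydrolysis, and a nucleotide exchange factor then resets it. Calreticulin and calnexin hold glycoproteins through a sugar tag while they fold. When unfolded proteins accumulate, the sensors ATF6, IRE1 and PERK raise the transcription of these genes, in part through short promoter sequences called ER stress elements.

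The promoters are shown first because these elements are the sequence feature through which the genes are known to respond. RefSeq promoters of the rat assembly GRCr8, reaching from 250 bases before to 50 bases after a start site, were available for all 9 measured genes. Hyou1 has 2 start sites in that table, and the first is shown. Bases before the start site are printed from 5′ to 3′ on the gene's strand, and capitals mark exact matches, on either strand, of 3 elements. The ER stress element is CCAAT and CCACG separated by 9 bases, the ER stress element II is ATTGG and CCACG separated by 1 base, and the unfolded protein response (UPR) element is TGACGTGG. Where a match lies on the opposite strand the capitals show its reverse complement. The lines for Hspa5 (chr3:38452766-38453015, + strand), Hsp90b1 (chr7:23012294-23012543, - strand) and Hyou1 (chr8:53602632-53602881, + strand) give all 250 bases before the start.
Hspa5: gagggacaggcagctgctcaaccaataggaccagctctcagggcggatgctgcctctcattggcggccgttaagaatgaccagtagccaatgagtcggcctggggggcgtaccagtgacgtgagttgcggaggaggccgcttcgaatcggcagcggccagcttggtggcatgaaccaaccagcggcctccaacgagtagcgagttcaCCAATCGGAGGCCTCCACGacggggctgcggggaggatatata
Hsp90b1: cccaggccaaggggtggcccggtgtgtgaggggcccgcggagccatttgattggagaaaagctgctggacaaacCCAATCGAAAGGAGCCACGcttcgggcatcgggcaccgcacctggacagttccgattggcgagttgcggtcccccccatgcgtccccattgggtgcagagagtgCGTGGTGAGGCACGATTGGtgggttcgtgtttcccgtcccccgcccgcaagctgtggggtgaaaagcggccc
Hyou1: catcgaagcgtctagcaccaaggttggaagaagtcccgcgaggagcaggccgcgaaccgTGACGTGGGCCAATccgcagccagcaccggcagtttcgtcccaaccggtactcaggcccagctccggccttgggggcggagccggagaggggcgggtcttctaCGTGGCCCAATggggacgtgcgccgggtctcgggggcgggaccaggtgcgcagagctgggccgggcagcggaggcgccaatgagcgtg

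For 4 further genes only the element and up to 12 bases on each side are given, with the coordinates of the capitals. These are Calr (chr19:40213135-40213153, + strand), Canx (chr10:35158069-35158087, - strand), Dnajc3 (chr15:102432534-102432552, + strand) and Dnajb11 (chr11:91672800-91672810, - strand).
Calr: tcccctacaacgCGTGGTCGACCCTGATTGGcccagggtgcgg
Canx: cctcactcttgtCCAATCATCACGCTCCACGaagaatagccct
Dnajc3: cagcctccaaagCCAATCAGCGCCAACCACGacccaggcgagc
Dnajb11: tcccaggcggcgATTGGCCCACG

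The ER stress element stood in the promoters of 5 of the 9 genes, Hspa5, Hsp90b1, Calr, Canx and Dnajc3. Of all 33469 RefSeq promoters of this length, 22 held it, or 0.0657%. Of the 12435 measured genes with a promoter, 15 held it, or 0.121%. Hspa5 had its copy closest to the start, with the first base 43 bases before it. Hsp90b1 was the only one of the 9 with more than 1 exact copy, beginning 176 and 72 bases before the start, the second on the opposite strand. Copies with a changed base in CCAAT or CCACG were not searched for, in Hspa5 or any other gene. In Dnajc3 the element began 133 bases before the start. In Canx and Calr it lay far upstream, at 230 and 232 bases, with the copy of Calr on the opposite strand.

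The ER stress element II was found in 2 other genes, Hyou1 and Dnajb11, against 17 of all promoters, or 0.0508%. Of the measured genes with a promoter, 12 held it, or 0.0965%. Hyou1 held 2 copies, 188 and 88 bases before the start and both on the opposite strand. The upstream copy overlaps the UPR element that begins 191 bases before the start of Hyou1. Hyou1 was the only one of the 9 with that element, held by 0.595% of all promoters and 0.756% of measured genes with a promoter. The copy of Dnajb11 began 10 bases before the start and ended on the first transcribed base. Dnajb9 and Sdf2l1 had no exact match of the 3 elements in this window, though both contain CCACG and CCAAT, found in 31.6% and 37.5% of all promoters. The window of Hsp90b1 also overlaps the neighbouring gene Ttc41, that of Dnajb11 the gene Tbccd1, and that of Dnajb9 the locus LOC120103526. The window of Dnajb9 lies wholly, and that of Canx in part, inside the annotated span of its own gene, so the absence of a match in Dnajb9 holds for this start site of RefSeq and no other. The second start site of Hyou1 had no match. A match of letters is a description and not a binding site shown to be used in these cells. Both kinds of ER stress element are already known from genes of this kind, so nothing is read from these counts or from the shares beside them.

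**Figure D1:**
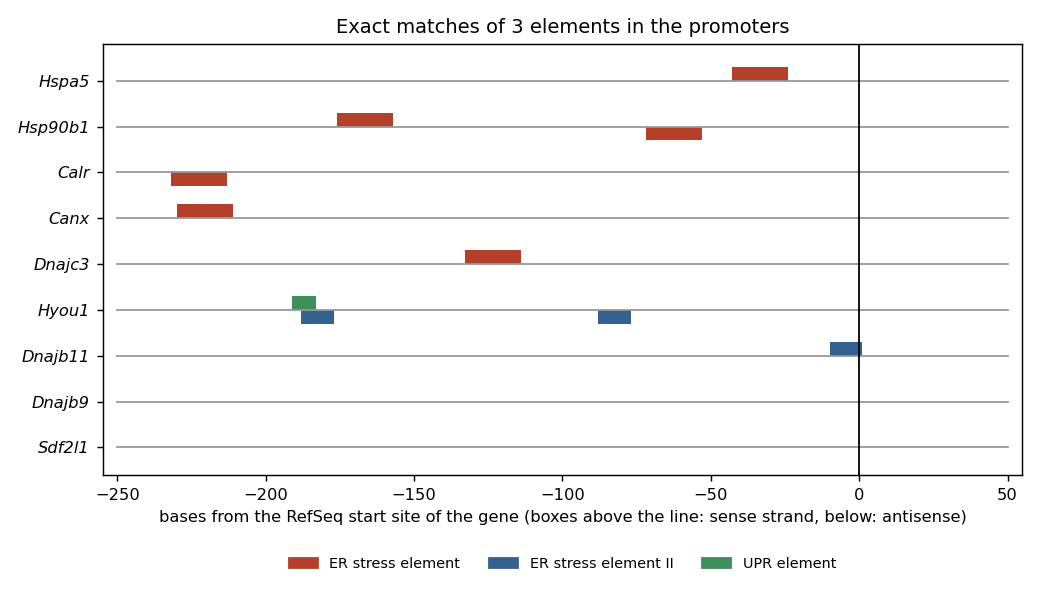
Positions of exact element matches in the promoters of the 9 measured genes, in bases from the RefSeq start site (vertical line at 0), with red boxes for the ER stress element, blue for the ER stress element II and green for the UPR element. Boxes above a gene's line lie on the sense strand and boxes below it on the antisense strand. Hsp90b1 and Hyou1 have 2 copies of an element, and the lines of Dnajb9 and Sdf2l1 are empty.

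All 9 measured genes had a higher mean signal under TMAO than in Control, with differences (TMAO minus Control, log2 scale) from 0.14 for Canx to 1.16 for Dnajb9 and a median of 0.46. The median over all 15037 genes was -0.0035. Higher means were found for 7370 of the 15037, which stands beside the counts of higher means in the lists below. In all 9 the 3 TMAO arrays lay above the 3 Control arrays, which held for 5.51% of all genes. The limma fit of the whole table called 1 of the 9, Hspa5, at an adjusted p of 0.05, against 0.0266% of all genes (4 genes, all higher: Herpud1, Hspa5, Tgfbi and Vldlr), and 8 of the 9 had an unadjusted p under 0.05 with a higher mean, against 3.01% of all genes. Since the members were proposed from this contrast, nothing is read from these counts. The call of Hspa5 was lost when any 1 of the 6 arrays was left out, while its difference stayed between 0.95 and 1.06.

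Among the Hsp70 and Hsp90 proteins, Hspa5 (probe set TC0300000287.rn.2) had log2 signals of 11.97, 12.02 and 12.14 on TMAO replicates 1, 2 and 3, against 11.09, 10.88 and 11.10 on the Control replicates. The groups were separated by 0.86 at their closest, and the spread within either was small (SD 0.09 for TMAO and 0.12 for Control, n = 3 each). Hspa5 rose 2.03-fold, a difference of 1.02 ± 0.12 (SE of the fit). Hspa5 encodes the most general of these chaperones, and the others of this class either exchange its nucleotide or receive clients after it.

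Hsp90b1 (TC0700002401.rn.2), the Hsp90 of the ER, which folds integrins and Toll-like receptors, had 11.47, 11.44 and 11.53 on the TMAO arrays, against 10.98, 10.51 and 10.48 on the Control arrays. The TMAO arrays were nearly equal, and Control replicate 1 stood above the other Control arrays without reaching the TMAO values. The difference was 0.82 ± 0.15, or 1.76-fold, and it came to 0.98 without Control replicate 1 and 0.73 without Control replicate 3. Hyou1 (TC0800000565.rn.2), a large relative of Hsp70 that acts as nucleotide exchange factor of BiP, had 8.68, 8.96 and 9.07 on the TMAO arrays, against 7.93, 7.99 and 7.61 on the Control arrays. Its difference of 1.06 ± 0.15, or 2.09-fold, was as large as that of Hspa5, with no overlap between the groups.

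The lectin chaperones differed less. Calr (TC1900001210.rn.2), the soluble calreticulin, which also stores calcium, had 10.83, 10.87 and 10.87 on the TMAO arrays, against 10.42, 10.30 and 10.47 on the Control arrays. The spread within the TMAO group was the smallest of the 9 genes (SD 0.02), and the difference was 0.46 ± 0.11, or 1.37-fold. Canx (TC1000002712.rn.2), the membrane-anchored calnexin, had 11.42, 11.53 and 11.47 on the TMAO arrays, against 11.37, 11.29 and 11.35 on the Control arrays. The closest arrays of the groups were 0.05 apart, and the difference of 0.14 ± 0.10 was the smallest of the 9. Within each array, the log2 ratio of Calr to Canx differed between TMAO and Control by 0.32 ± 0.04 (SE over the arrays) with no overlap. The element begins 232 and 230 bases before the start in these 2 promoters. The same comparison of Hspa5 with Canx gave 0.89 ± 0.07.

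The 3 J-domain co-chaperones of BiP covered the widest range. Dnajb9 (TC0600002395.rn.2), which directs misfolded clients to degradation and restrains IRE1, had 7.83, 8.02 and 8.99 on the TMAO arrays, against 7.16, 7.24 and 6.96 on the Control arrays. TMAO replicate 3 stood almost 1 log2 unit above the other TMAO arrays (SD 0.62, against 0.14 in Control). The difference was 1.16 ± 0.26, or 2.24-fold, and 0.81 without TMAO replicate 3. Dnajc3 (TC1500001136.rn.2), also called p58IPK, an inhibitor of PERK and a carrier of clients to BiP, had 8.91, 8.93 and 9.24 on the TMAO arrays, against 8.59, 8.40 and 8.71 on the Control arrays. Here too TMAO replicate 3 was the highest, and the difference of 0.45 ± 0.14 came to 0.35 without it. Dnajb11 (TC1100001892.rn.2), which binds nascent clients and hands them to BiP, had 8.47, 8.38 and 8.34 on the TMAO arrays, against 8.21, 7.86 and 8.10 on the Control arrays. Here TMAO replicate 3 was the lowest of its group, and the difference of 0.34 ± 0.13 came to 0.24 without Control replicate 2. The log2 ratio of Dnajb9 to Dnajb11 differed by 0.82 ± 0.42 and overlapped between the groups, so these arrays did not separate the difference of Dnajb9 from that of Dnajb11.

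Sdf2l1 (TC1100001023.rn.2), a partner of Dnajb11 that keeps clients of BiP from aggregating, had 7.55, 7.65 and 7.59 on the TMAO arrays, against 7.18, 7.21 and 7.30 on the Control arrays. Both groups were tight (SD 0.05 and 0.06), and the difference was 0.37 ± 0.11, or 1.29-fold. Its close relative Sdf2 had 6.42, 6.63 and 6.51 on the TMAO arrays, against 6.55, 6.78 and 6.75 on the Control arrays, a difference of -0.18 ± 0.12. The ratio of Sdf2l1 to Sdf2 within an array differed by 0.54 ± 0.065 with no overlap. The relative of Manf, Cdnf, had means of 3.15 under TMAO and 3.14 in Control, below the median of the negative control probe sets (3.95), so these signals do not measure its level.

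**Figure D2:**
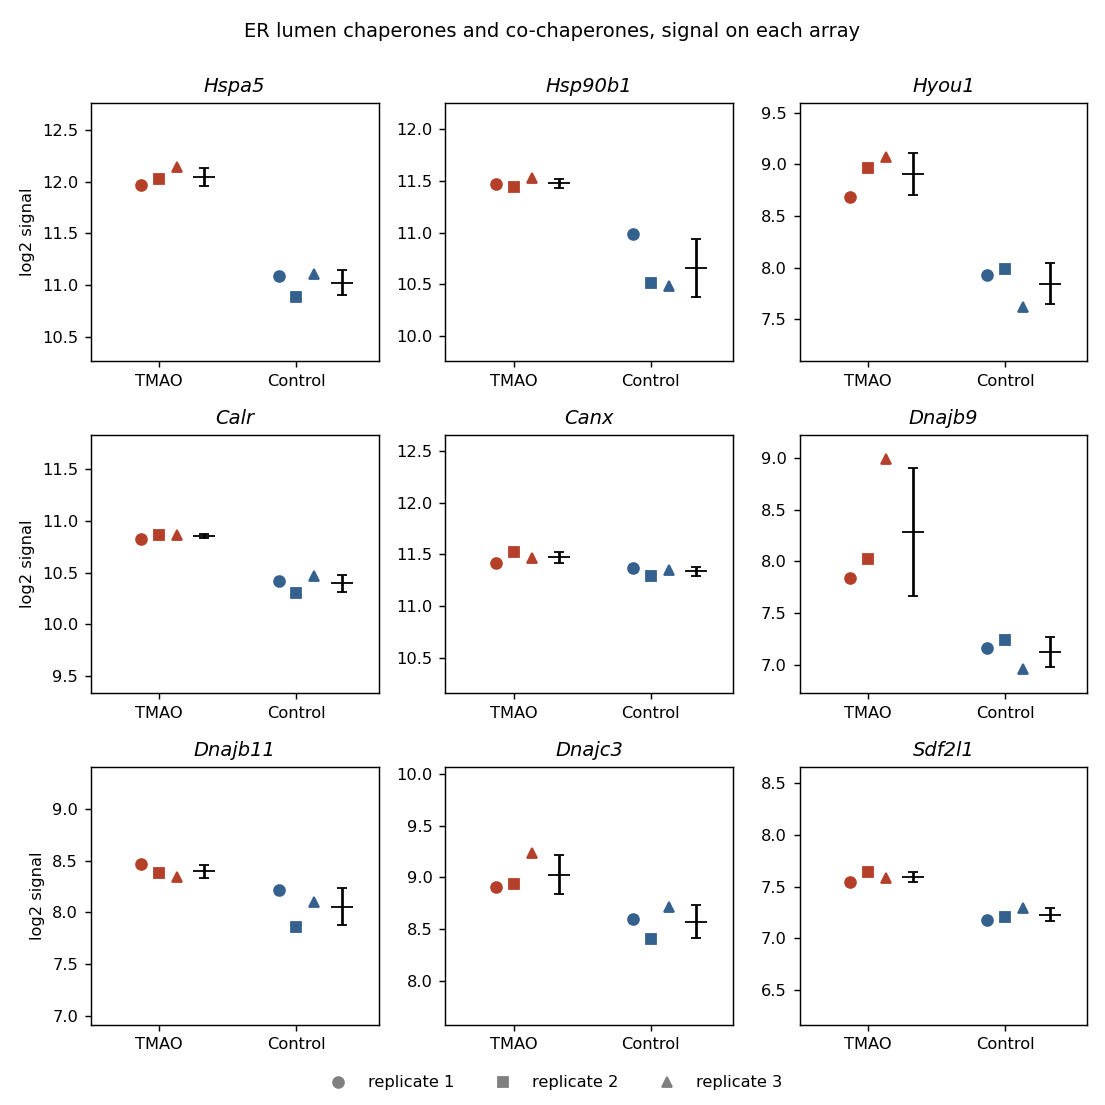
Log2 signal of the 9 genes on each array, TMAO on the left of each panel and Control on the right, with a symbol for each replicate number and a bar for the mean ± SD of the 3 arrays. All panels span the same range of log2 units. The groups do not overlap in any panel, the gap of Canx (0.05) is the narrowest, and TMAO replicate 3 stands alone for Dnajb9 at 8.99.

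Seen array by array, the 9 genes averaged 0.22, 0.29 and 0.45 log2 units above their 6-array means on TMAO replicates 1, 2 and 3, against -0.24, -0.39 and -0.34 on the Control replicates. TMAO replicate 3 was the highest TMAO array for 6 of the 9 and TMAO replicate 1 the lowest for 7. TMAO replicate 3 also had the highest means of the labelling and hybridisation spike-in controls (7.17 and 9.59, where the next highest arrays had 7.12 and 9.38), and the part of this in the values was not tested. Without that array the 9 genes had a median difference of 0.45. Their means had to stay higher under TMAO, since the groups did not overlap in any of them. The typical spread within a group (pooled SD) had a median of 0.14 over the 9 genes and 0.17 over all genes.

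**Figure D3:**
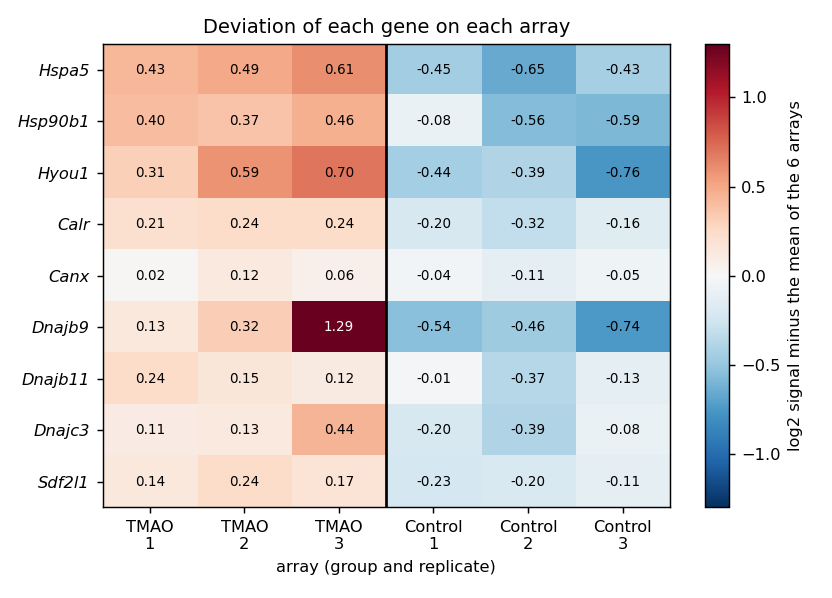
Log2 signal of each gene minus its mean over the 6 arrays, by array, with TMAO arrays left of the black line and Control arrays right of it. All TMAO cells are positive and all Control cells negative, and the largest deviation is Dnajb9 on TMAO replicate 3 (1.29).

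Cells carry relatives of these chaperones in the cytosol and in mitochondria, and most of them showed no such difference. Hspa8, the constitutive Hsp70 of the cytosol, had 11.80, 11.80 and 11.75 on the TMAO arrays, against 11.90, 11.87 and 11.86 on the Control arrays, a difference of -0.10 ± 0.10. Its 3 TMAO arrays lay just below its 3 Control arrays. The cytosolic Hsp90 genes Hsp90aa1 and Hsp90ab1 had 0.02 ± 0.12 and -0.05 ± 0.11, and the mitochondrial Trap1 had -0.12 ± 0.12. Of the cytosolic relatives of Hyou1, Hsph1 had -0.12 ± 0.11, Hspa4 had 0.01 ± 0.12, and Hspa4l had 1.85 ± 0.31. Hspa9, the mitochondrial Hsp70, had 0.34 ± 0.12. The log2 ratio of Hspa5 to Hspa8 differed between TMAO and Control by 1.12 ± 0.10, that of Hsp90b1 to Hsp90aa1 by 0.80 ± 0.15, and that of Hyou1 to Hsph1 by 1.18 ± 0.16, each without overlap between the groups. The ratio of Hyou1 to Hspa4l ran the other way, at -0.79 ± 0.41, and overlapped between the groups.

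Of 23 measured chaperones of these compartments 10 had higher and 13 lower means, with a median of -0.01. By limma 0 passed the adjusted threshold, 2 had an unadjusted p under 0.05 with a higher mean and 0 with a lower one, where 3.01% of all genes were higher and 2.48% lower at that level. The 2 were Hspa9 and Hspa4l, a cytosolic member of the Hsp110 family. Hspa4l had 5.80, 5.66 and 6.98 on the TMAO arrays, against 3.97, 4.57 and 4.34 on the Control arrays, a difference of 1.85 ± 0.31 with an adjusted p of 0.185 by limma. Its Control values lay close to the negative controls, so the size of this difference is uncertain.

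**Figure D4:**
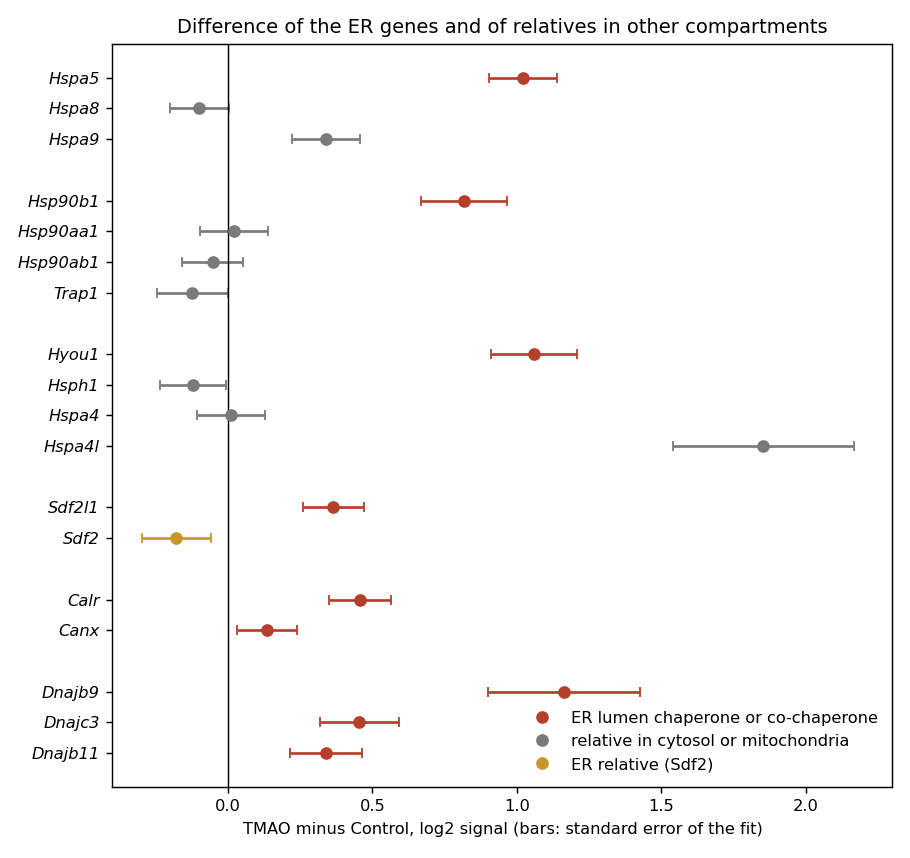
Differences between TMAO and Control (log2 signal, points) with the standard error of the fit (bars) for the ER genes in red, their relatives in the cytosol and mitochondria in grey and the ER relative Sdf2 in ochre. The red points lie between 0.14 and 1.16, and the grey points between -0.12 and 0.34 except Hspa4l at 1.85.

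Other folding factors of the ER lumen and membrane, which include prolyl isomerases, further J-domain proteins and glycoprotein sensors, were mixed. Of 26 measured genes 18 had higher and 8 lower means, with a median difference of 0.05. By limma 0 passed the adjusted threshold, and 2 higher and 1 lower gene had an unadjusted p under 0.05 (3.01% and 2.48% of all genes). Creld2, an ER protein with disulfide isomerase activity, had 8.01, 8.25 and 8.49 on the TMAO arrays, against 7.41, 6.91 and 7.56 on the Control arrays, a difference of 0.96 ± 0.19 (adjusted p = 0.278 by limma). Ficd, which switches BiP off by attaching AMP to it, had 5.39, 5.40 and 5.98 on the TMAO arrays, against 4.66, 4.66 and 4.004 on the Control arrays. Its difference was 1.15 ± 0.22 (adjusted p = 0.256 by limma), and the Control arrays lay near the negative controls. Cnpy4 was the lower gene, at -0.42 ± 0.12 (adjusted p = 0.725 by limma).

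Several partners of the 9 genes were among those without a clear difference. Sil1, the other nucleotide exchange factor of BiP, had 0.15 ± 0.14, the J-domain protein Dnajc10 had 0.04 ± 0.11, and Sec63, which recruits BiP to the translocon, had -0.01 ± 0.12. Uggt1, which returns misfolded glycoproteins to calnexin and calreticulin, had 0.12 ± 0.13. Hspa13, a small Hsp70 relative of the ER, had 0.30 ± 0.17 and Fkbp2, a prolyl isomerase, 0.22 ± 0.14.

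The disulfide isomerases and oxidases of the ER had higher means in 14 of 17 genes, with a median of 0.16. By limma 0 passed the adjusted threshold, and 5 higher and 0 lower genes had an unadjusted p under 0.05 (3.01% and 2.48% of all genes). Pdia4 had 8.98, 8.97 and 9.34 on the TMAO arrays, against 8.23, 7.83 and 7.92 on the Control arrays, a difference of 1.10 ± 0.15 (adjusted p = 0.102 by limma). Pdia6, which acts beside BiP, had 0.59 ± 0.12, Ero1b, an oxidase that recharges the isomerases, 0.67 ± 0.16, and Txndc11 0.64 ± 0.16. Pdia3, the isomerase that works with calnexin and calreticulin, had 0.24 ± 0.105, while P4hb, the most widely acting isomerase, had 0.16 ± 0.11.

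Of the ER-associated degradation genes all 15 measured had higher means, with a median of 0.18. By limma 1, Herpud1, passed the adjusted threshold (adjusted p = 0.0373), and 4 had an unadjusted p under 0.05 with a higher mean (3.01% of all genes). Herpud1, a membrane protein that organises the degradation complex, rose to 9.51, 9.47 and 10.15 on the TMAO arrays, against 8.09, 7.90 and 7.73 on the Control arrays. Its promoter also holds an ER stress element II. The call was lost when any 1 array was left out, with differences from 1.58 to 1.92. Sel1l, the adaptor of the same complex, had 0.77 ± 0.12, Selenos 0.41 ± 0.13 and Syvn1, its ubiquitin ligase, 0.36 ± 0.14.

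All 14 measured genes of unfolded protein response signalling, which include its sensors and transcription factors, had higher means, with a median of 0.33. By limma 0 passed the adjusted threshold, and 7 had an unadjusted p under 0.05 with a higher mean (3.01% of all genes). Ddit3 had 1.76 ± 0.26, Trib3 1.21 ± 0.29 and Xbp1, the factor activated by IRE1, 0.44 ± 0.11. Atf6, which acts on the ER stress element, had 0.48 ± 0.17, with 9.18, 9.17 and 9.72 on TMAO replicates 1, 2 and 3. The other sensors, Ern1 (IRE1) and Eif2ak3 (PERK), had 0.39 ± 0.23 and 0.08 ± 0.17, and both overlapped between the groups. Without TMAO replicate 3 the difference of Ddit3 came to 1.42, that of Trib3 to 0.85 and that of Xbp1 to 0.38.

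**Figure D5:**
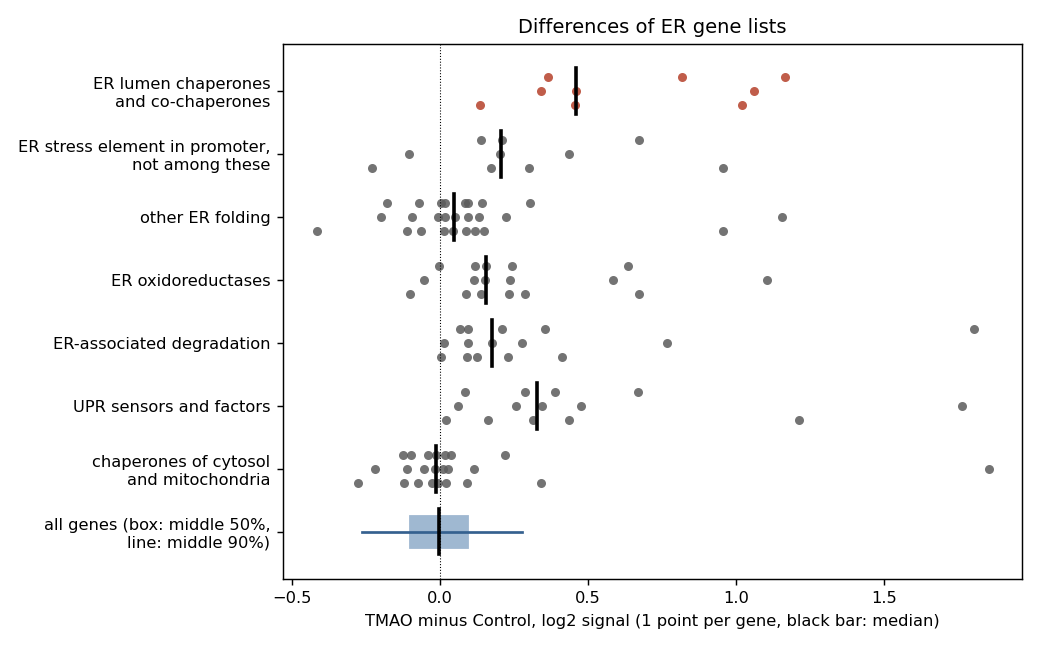
Difference between TMAO and Control (log2 signal) for each gene of 7 lists, with the black bar at the list's median, above the distribution of all 15037 genes. The 9 ER lumen chaperones and co-chaperones have a median of 0.46, the other ER folding genes 0.05 and the chaperones of cytosol and mitochondria -0.01.

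A list was also drawn from promoter sequence, without use of the signals, though it shares genes with the lists above and is not separate from them. Of 12435 measured genes with a RefSeq promoter, 15 held the ER stress element, and 13 of them had higher means under TMAO, with a median difference of 0.30, against -0.0033 over all genes with a promoter. All 3 TMAO arrays lay above all 3 Control arrays for 9 of the 15, which held for 5.6% of all measured genes with a promoter. As 5 of the 15 are chaperones described above, the other 10 were also taken alone, a choice made after the values were seen. Of these 10, 8 had higher means, with a median of 0.21, and 4 had no overlap between the groups, beside the same 5.6%. These 4 were Creld2 (0.96), Ero1b (0.67), Xbp1 (0.44), and Zfand2a (0.30), which encodes a zinc finger protein linked to the proteasome. Among the rest, Derl3, a degradation factor of the ER, had 0.21 ± 0.17, Birc5 -0.23 ± 0.13 and Ppm1l -0.11 ± 0.16. The element was thus also present where the mean was not higher. Creld2, Ero1b, Xbp1 and Derl3 also belong to lists described above. Of the genes in none of those lists, Zfand2a was without overlap, while Ankmy2, Birc5, Hnrnpa3, Ppm1l and Zfp57 overlapped between the groups. The median of the 15 came to 0.21 without TMAO replicate 3 and 0.42 without TMAO replicate 2.

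The ER stress element II was held by 12 measured genes, of which 8 had higher means, with a median of 0.07. All 3 TMAO arrays lay above all 3 Control arrays for 4 of the 12, beside 5.6% of all measured genes with a promoter. These were Herpud1, Hyou1, Dnajb11 and Ggct, an enzyme of glutathione breakdown, which had a difference of 0.66 ± 0.16. In 1 of the 12, Cdc45, all TMAO arrays lay below all Control arrays, with -0.16 ± 0.11 and signals near the negative controls. The UPR element was held by 94 measured genes, of which 62 had higher means, with a median of 0.05. Of all 12435 measured genes with a promoter, 6102 had higher means, with a median of -0.0033.

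By distance between profiles over the 6 arrays (root mean square of the deviations from each gene's mean, in log2 units), the genes nearest to Hspa5 outside the 9 were Gtpbp2 (0.11), a ribosome rescue factor, Pck2 (0.12), the mitochondrial form of phosphoenolpyruvate carboxykinase, Inhbe (0.13), Pdia4 (0.13) and Gpat3 (0.14), an enzyme of glycerolipid synthesis. The distance of a typical gene was 0.54. Hsp90b1 (0.18) and Hyou1 (0.19) were the nearest of the other 8, and Canx (0.45) the farthest. These distances rest on 6 arrays and include the difference between TMAO and Control.

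The labelled cell type was checked with marker genes. Of 11 measured hepatocyte markers, all but Cyp2c11 exceeded the negative control median (3.95) by over 1 log2 unit, though Cps1 did so only barely (1.03). The summed linear signal of the 11 was 18800 to 21100 on the TMAO arrays and 19400 to 21400 on the Control arrays. Macrophage markers summed to 481 to 513 under TMAO and 511 to 640 in Control, with 9 of 10 lower in mean and Clec4f, Adgre1, Csf1r, Vsig4 and C1qb near the negative controls. Endothelial markers summed to 121 to 131 under TMAO and 124 to 145 in Control, with 6 of 7 near the negative controls. Stellate markers summed to 3380 to 4080 under TMAO and 3570 to 4280 in Control, with Des, Pdgfrb and Lrat near the negative controls. Tagln, which smooth muscle also expresses, made up 79.9% to 84.5% of that sum, and the other 8 stellate markers summed to 539 to 715 under TMAO and 666 to 790 in Control. The mean log2 signals of Tagln were 11.63 under TMAO and 11.67 in Control, where those of the hepatocyte marker Alb were 11.92 and 11.89. Cholangiocyte markers summed to 188 to 279 under TMAO and 201 to 246 in Control, with Cftr near the negative controls. Lower means under TMAO were not particular to the macrophage markers. They were also found for 8 of 11 hepatocyte, 5 of 7 endothelial, 8 of 9 stellate and 1 of 5 cholangiocyte markers, and for 7667 of all 15037 genes. The part of other cells in the chaperone signals was not tested.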

How the data were processed

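RNA of 6 samples was measured on Affymetrix arrays from biotinylated cRNA, per the labels' protocols. The deposited values are log2 signals, 1 per probe set and array. The steps that made them are not stated in the labels, and the submitters' processing notes name limma without a role. A second deposited table has 6 columns with no label that ties them to samples, and they were not used.

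Control probe sets (1683 of 24871) were left out. Of the other 23188, 15049 have 1 gene symbol, and the probe set of highest mean stood for each of 15037 genes. Limma (version 3.58.1, in R 4.3.3) fitted group means per gene and moderated the variances with eBayes. Tests were two-sided and p-values were adjusted over all 15037 genes by the Benjamini-Hochberg method, with a threshold of 0.05. The procedure was tested on simulated data. The number of arrays limits the precision.

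The members and lists were chosen with earlier results of these data known. Genes named were all members, from each list those past the threshold and those of smallest unadjusted p, relatives in other compartments fixed with the lists, further partners, response factors and promoter-list genes picked after their values were seen, and the 5 nearest profiles to Hspa5 above the 25th percentile of mean signal. Alternatives changed the normalization, the probe sets, the filter, the spread estimate, the replicate block, the arrays and the element.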

Additional observations from a re-analysis of the deposited data

How the results depend on the processing

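Each of the 9 genes kept a positive difference in all 14 alternative settings of the fit, but most settings could not have reversed a sign. Changes of the probe sets, the filter, the spread estimate or the replicate block left the differences of the 9 as they were. As the groups did not overlap in any of the 9, leaving out or weighting arrays could change only the size. Only the changes of normalization could have reversed a sign, so nothing is read from this count. The median of the 9 ran from 0.41 to 0.53 with 1 array left out. By limma, 0 of 15037 genes passed with the replicate block and 0 of 23188 when all probe sets were tested, so 0 of the 9 genes and 0 of the other ER lists passed there. At an unadjusted p under 0.05 there were 826 and 1146 in these settings, 8 of the 9 genes among them in each. Whether arrays that share a number form pairs was not settled. The correlation of deviations between TMAO and Control was 0.13, 0.10 and -0.01 for replicates 1, 2 and 3. Crossing replicates 1 and 2 gave -0.13 and -0.12, while TMAO replicate 3 correlated best with Control replicate 2 (0.03). Some genes followed the replicate number in both groups, as Ttr, Apob, Ass1 and Serpinh1 did, and such genes were not counted. The fit with the replicate block is therefore not set aside. With the filter on dim genes the adjustment ran over only 7519 genes, and 9 passed, of which 2 were members and 3 in the other ER lists. With array weights 7 passed, with 1 member and 3 in the other lists. With trend and robust estimation 30 passed, with 4 members (Hspa5, Hsp90b1, Hyou1 and Calr) and 5 in the other lists. Leaving out 1 array left 0 to 2 genes, 0 members and 0 in the other lists. In these fits 7 to 8 members had an unadjusted p under 0.05, against 601 to 877 of all 15037 genes. The other ER lists had 16 to 19 genes at that level. The median of the genes with an ER stress element ran from 0.21 to 0.42 with 1 array left out. It was 0.20 with a gap of 8 to 10 bases and 0.0717 for the shorter element. Without the ER lumen chaperone genes, a setting added after the data were seen, it was 0.21. The cause of these shifts was not tested.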

Other observations

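Serpinh1, the collagen-specific chaperone of the ER, was high on both arrays numbered 1. In TMAO its log2 signal was 7.10 for replicate 1, 5.40 for replicate 2 and 5.39 for replicate 3. In Control it was 7.59 for replicate 1, 5.35 for replicate 2 and 5.14 for replicate 3. The difference between TMAO and Control was -0.06 ± 0.64 (SE of the fit), and the cause of the high values was not tested.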
